A study of Mus musculus with 21 samples.

Results

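RNA was compared between single mouse CD8 T cells kept for 5 days in IL-2 at 50 IU/mL and at 5 IU/mL. The question was which genes differ when only the dose of the cytokine differs. All cells of the libraries titled with these doses on day 5 were used: 3251 cells at 50 IU/mL and 4703 cells at 5 IU/mL, 7954 of the 106458 cells in the 21 libraries of the series. The cells were OT1 T cells, which carry 1 transgenic T cell receptor for an ovalbumin peptide. They were taken naive, activated on day 0 with beads bearing anti-CD3 and anti-CD28, and then cultured with wild-type IL-2. Given beside them are activated cells kept without cytokine to day 5 and naive cells of day 0, together with the same dose step of IL-2 on days 3 and 10, and of IL-2v (a mutant IL-2) and IL-15 on day 5. Age and number of the animals are not stated in the labels. Each condition had 1 library, so a difference between doses here is a difference between 2 libraries, with no replicate check and no test.

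IL-2 is the growth factor that activated T cells make and take up. Its receptor joins an alpha chain (Il2ra), which raises affinity, with beta and gamma chains (Il2rb, Il2rg) that carry the signal through the kinases JAK1 and JAK3 to the transcription factor STAT5. In CD8 T cells a strong signal is known to favour growth, glycolysis and cytotoxic effector genes, and a weak one to preserve the memory programme built on the transcription factor TCF-1, the product of Tcf7. STAT5 also switches on its own inhibitors, among them Cish and Socs2.

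The 50 IU/mL library was the shallower one, with 10590998 UMIs (unique molecular identifiers, which mark single captured RNA molecules) against 20044689, and medians of 3016 and 3942 UMIs per cell. Cells with under 2000 UMIs made up 12.1% of the first and 1.59% of the second. Mitochondrial genes took 2.91% and 4.27% of UMIs, ribosomal protein genes 32.0% and 37.0%, and the nuclear RNA Malat1 13318 and 21496 CPM (UMIs of a gene scaled to a library total of 1000000). Their part in the differences was not tested. Only 3 cell barcodes occurred in both libraries. The T cell gene Cd3d had a UMI in 93.0% of cells at 50 IU/mL and 98.9% at 5 IU/mL. Of the 6 T cell genes listed it had the highest share, and Cd8a the lowest, at 37.0% and 59.2%. Cd4 had a UMI in 0.154% and 0.0425% of cells. The marker shares given here were counted on all UMIs, in libraries of unequal depth. Zbtb7b, the other CD4 T cell marker listed, was at 28.9 and 12.5 CPM, with a UMI in 8.55% and 5.06% of cells. Of the markers of other cells, Ms4a1, Lyz2, Csf1r, Adgre1, Foxp3, Ncr1, Flt3, Hba-a1, Col1a1 and Col1a2 were at 0 in both. The summed levels of the B cell markers were 7.65 and 17.8 CPM, nearly all of it Cd79b, of the myeloid markers (5 genes) 115 and 123 CPM, nearly all of it Cst3, and of the natural killer cell markers (3 genes) 32.5 and 8.08 CPM, nearly all of it Eomes, which effector T cells also express. The endothelial gene Pecam1, the 1 gene of the stromal list that was not at 0, was at 19.9 and 42.4 CPM, with a UMI in 5.51% and 15.7% of cells. Hbb-bt, a haemoglobin gene, had 27 UMIs in 18 cells at 50 IU/mL and none at 5 IU/mL.

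Some labels of the 50 IU/mL library conflict. Its treatment label names interleukin-3, while its title follows the pattern of the IL-2 libraries and the design text names IL-2, IL-2v and IL-15 only. The 50 IU/mL IL-2 libraries of days 3 and 10 carry the same treatment label, and the libraries titled IL-15 at 50 IU/mL name interleukin-16, so titles were followed for these too. The number that ends every cell barcode in its table is 19, and that of the day 5 library titled IL-2v at 5 IU/mL is 18, whereas on days 3 and 10 the IL-2 library at 50 IU/mL came directly before that of IL-2v at 5 IU/mL (11 and 12, 5 and 6). Mt1, a metallothionein gene, stood at 761 CPM in the 50 IU/mL library of day 5, beside 714 and 908 CPM in those of days 3 and 10, and at 54.0 CPM in the day 5 library titled IL-2v at 5 IU/mL. Tnfrsf9, a costimulatory receptor gene, was at 509, 582 and 1112 CPM with IL-2 at 50 IU/mL on days 3, 5 and 10, and at 96.4 CPM in that IL-2v library. Cdkn1a, a cell cycle inhibitor gene, was at 148, 181 and 361 CPM, and at 7.49 CPM there. Emilin2, a matrix gene, was at 60.6, 129 and 279 CPM, and at 12.3 CPM there. These 4 genes were picked after their values were seen. Tnfrsf9, Cdkn1a and Emilin2 are also among the 15 genes with the highest differences in this comparison. With IL-2v at 50 IU/mL on day 5 these 3 stood at 466, 112 and 80.9 CPM. The values of these 3 genes thus cannot place the library. Mt1 differed little across the IL-2v dose step of day 5 (log2 difference −0.13), so its level was low in both IL-2v libraries of that day. It is 1 gene picked after its values were seen, and alone it does not place the library either. Other values differed between days. Hspa1a, a heat shock gene, was at 65.8, 128 and 0.183 CPM at 50 IU/mL on days 3, 5 and 10. Over 5495 genes with a mean of 20 CPM or more in the series, the root mean square log2 difference of the library was 0.540 from IL-2 at 5 IU/mL and 0.591 from IL-2 at 50 IU/mL on day 3. On day 10 these distances were 0.766 and 0.962. The nearest library of all was that of IL-2v at 5 IU/mL on day 5 (0.536). The title was followed, and whether the 2 libraries were exchanged was not tested.

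Of 17516 gene symbols, 5765 reached 20 CPM in either library and were compared on the log2(CPM + 1) scale, on which low genes appear to change less than they do. Genes were counted as higher or lower when their log2 difference (50 minus 5 IU/mL) was at least 1 in size, and 1010 (17.5%) were. At 50 IU/mL 814 genes (14.1%) were higher and 196 (3.4%) lower. The higher group held 174 genes past 4-fold and 47 past 8-fold, the lower group 28 and 6. The median of all compared genes was itself 0.22 above 0, and against that median the counts became 554 higher and 365 lower. Scaling by trimmed means (TMM) gave 566 and 344, and 783 and 410 when mitochondrial and ribosomal protein genes were taken out of the totals. The share of higher genes among those that differed thus fell from 80.6% to 62.2% or 65.6% with these scalings. CPM values are followed by exact Poisson 95% intervals, and shares of cells by exact Clopper-Pearson 95% intervals, where given. Both cover counting error only. The part of UMIs that comes from free RNA was not estimated in any library, so a share counts cells with a UMI, not cells that express the gene.

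**Figure D1:**
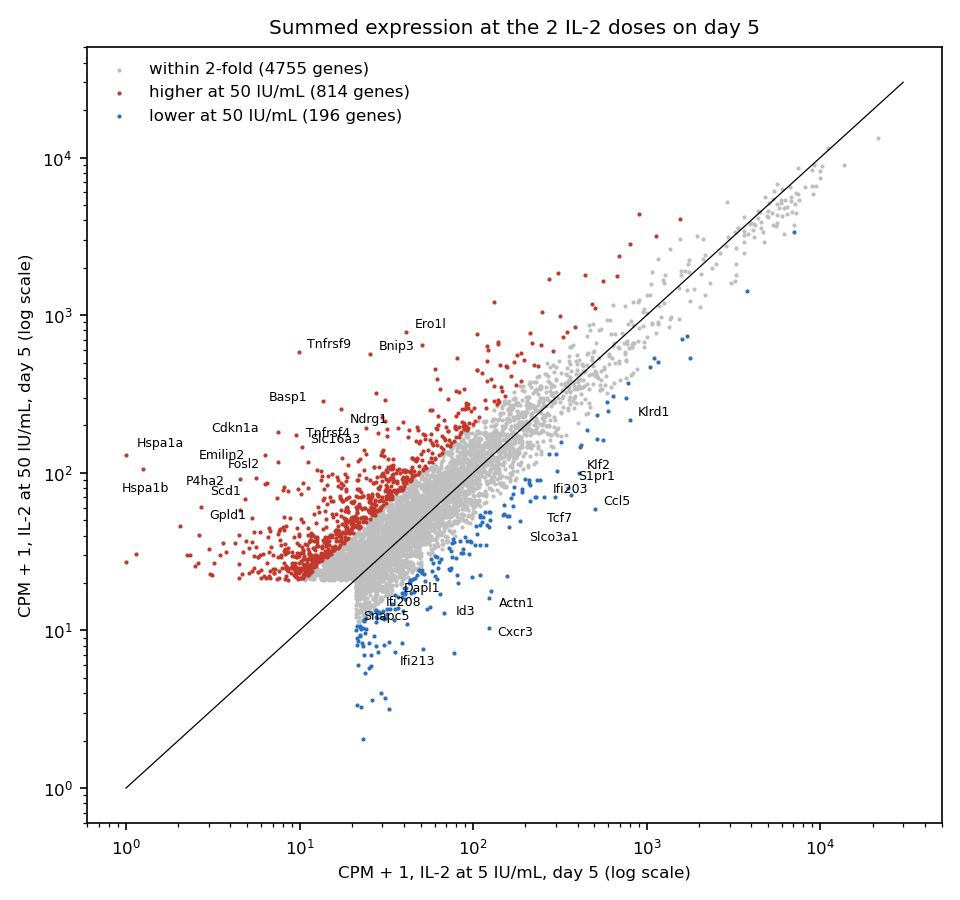
Summed expression of the 5765 compared genes at 5 IU/mL (x axis) and 50 IU/mL IL-2 (y axis) on day 5, as CPM + 1 on log axes, 1 point per gene. Red points are the 814 genes at least 2-fold higher at 50 IU/mL, blue points the 196 at least 2-fold lower and grey points the rest. The black line marks equal levels, and the labelled genes are from the 15 highest and 15 lowest among those with 50 CPM or more.

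The alpha chain of the receptor was higher at 50 IU/mL. Il2ra stood at 330.3 CPM (319 to 341) against 78.3 CPM (74.4 to 82.2), a log2 difference of 2.06, and it was the 1 gene of 7 receptor, JAK and STAT genes to pass 2-fold (14.3%, beside 14.1% of all compared genes). Il2rb was at 374 and 224 CPM and Stat5b at 60.0 and 36.0 CPM, while Il2rg was at 195 and 293 CPM. The alpha chain thus showed the widest gap of the chains, and the gamma chain lay on the other side. After each cell was thinned to 2000 UMIs, Il2ra had a UMI in 43.3% of cells at 50 IU/mL and 12.9% at 5 IU/mL, against 0.962% of naive cells. Median depth before thinning was 3177 UMIs in the thinned cells at 50 IU/mL, 3957 at 5 IU/mL and 3869 in naive cells.

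Among 12 compared STAT5 targets and feedback genes, 9 were higher (75.0%, beside 14.1% of all compared genes), none was lower, and the median log2 difference was 1.57. Cish, which encodes an inhibitor of cytokine signalling, stood at 97.3 CPM (91.5 to 103) and 17.2 CPM (15.4 to 19.1). The survival gene Bcl2 was at 449 and 105 CPM, and the kinase gene Pim2 at 227 and 61.5 CPM. The feedback genes did not all lie on 1 side: Socs2 was at 91.7 and 33.7 CPM, but Socs1, an inhibitor of JAK kinases, at 109 and 162 CPM. Myc, which drives growth, was at 151 and 95.6 CPM, short of 2-fold. The ERK phosphatase genes Dusp5 and Dusp6 had log2 differences of 1.51 and 1.62.

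The window at the start of Cish is shown because it holds the palindrome TTCNNNGAA, the motif that STAT5 dimers bind, 2 times side by side, at positions 1 and 12 counted from the start site. It comes from RefSeq on GRCm38.p6 (chr9:107296479-107296678, plus strand, 180 bases before to 20 after the start), with the motif in capitals.
Cish: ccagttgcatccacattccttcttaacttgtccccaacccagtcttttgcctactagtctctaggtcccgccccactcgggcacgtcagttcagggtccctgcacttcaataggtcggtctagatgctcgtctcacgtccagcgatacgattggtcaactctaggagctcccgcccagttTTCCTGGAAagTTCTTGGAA
On either strand the motif was present in 8.30% of 32851 RefSeq windows of 300 bases (250 before to 50 after a start) and in 3 of 12 windows of the STAT5 list. A match of letters is a description of the window, not evidence of binding.

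Receptors of the TNF family that costimulate T cells held some of the widest gaps. Tnfrsf9, which encodes 4-1BB, stood at 582 CPM (568 to 597) at 50 IU/mL and 8.88 CPM (7.62 to 10.3) at 5 IU/mL, 65.6-fold higher (counting interval 56.5 to 76.6). Its level at 5 IU/mL lay near that without cytokine (10.3 CPM) and in naive cells (6.88 CPM). A UMI of Tnfrsf9 was found in 60.3% of thinned cells at 50 IU/mL, 1.40% at 5 IU/mL and 1.14% of naive cells. So most cells at the higher dose had a UMI of the gene, while the share at the lower dose was close to the naive one. Tnfrsf4, which encodes OX40, stood at 172 CPM (164 to 180.0) and 8.48 CPM (7.25 to 9.86), and Tnfrsf18, which encodes GITR, at 477 and 154 CPM. Cd27, a TNF family receptor of naive and memory cells, went the other way, at 102 and 305 CPM. Of 7 costimulatory receptor genes compared, 4 were higher (57.1%, beside 14.1% of all compared genes) and 1 lower (14.3%, beside 3.4%).

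Cytotoxic granule genes were higher in part. Gzmb, which encodes the protease granzyme B, stood at 1689 CPM (1665 to 1714) and 272 CPM (265 to 279), 6.22-fold higher, beside 47.2 CPM without cytokine. Its UMIs were found in 89.0% of cells at 50 IU/mL, 29.0% at 5 IU/mL and 0.582% of naive cells. Gzmc was at 129 and 28.5 CPM, Gzma at 160.1 and 55.2 CPM, and the pore gene Prf1 at 23.6 and 6.04 CPM. Serpinb9, which encodes an inhibitor of granzyme B, was higher, at 77.8 and 20.3 CPM. Nkg7 (530.1 and 529.6 CPM) and the granule proteoglycan gene Srgn (513 and 689 CPM) were not. In all, 7 of 12 compared granule genes were higher (58.3%, beside 14.1% of all) and none lower. Prf1 was seen in 3.54% of cells at 50 IU/mL and 0.972% at 5 IU/mL, below the 7.38% of naive cells.

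Of 16 effector transcription factor genes, 7 were higher (43.8%, beside 14.1% of all) and none lower. Bhlhe40, a repressor induced on T cell activation, stood at 318 and 26.4 CPM (log2 difference 3.54). Prdm1, which encodes Blimp-1, was at 38.7 and 8.93 CPM, Eomes at 30.4 and 7.53 CPM, Nfil3 at 89.5 and 20.7 CPM and Irf8 at 95.5 and 21.1 CPM. The factors Id2 (210.2 and 202 CPM) and Runx3 (440.5 and 441 CPM), both needed for effector cells, lay at near equal levels, and Tbx21, which encodes T-bet, had a log2 difference of −0.79. Fosl2, an AP-1 subunit gene, had a log2 difference of 3.96, while Jun (0.54) and Junb (0.05) differed by under 2-fold. Structural and membrane genes of effector cells included Anxa2 at 677 and 138 CPM, Lgals3 at 448 and 104 CPM and Vim at 2368 and 690.0 CPM. S100a6 (977 and 1209 CPM) and S100a10 (945 and 1537 CPM) were not among them. In the list of serpins, galectins, annexins and S100 genes that holds these 5, 6 of 18 were higher (33.3%, beside 14.1% of all) and none lower, with a median of 0.36 beside 0.22 for all.

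Glycolysis and the response to low oxygen made the widest change of any list of more than 2 genes: 21 of 22 genes were higher (95.5%, beside 14.1% of all), none was lower, and the median log2 difference was 2.34. The summed level of the list was 21082 CPM at 50 IU/mL, 5346 at 5 IU/mL, 3095 without cytokine and 1783 in naive cells. Every enzyme of the path from glucose to lactate on the list was at least 2-fold higher. The uptake genes Slc2a1 and Slc2a3 (glucose transporters GLUT1 and GLUT3) stood at 77.7 and 12.8 CPM and at 455 and 59.2 CPM. Hexokinase gene Hk2 was at 118 and 20.7 CPM, Pfkp (phosphofructokinase) at 537 and 79.5 CPM and Tpi1 (triosephosphate isomerase) at 1206 and 131 CPM. Ldha, which makes lactate, was at 1807 and 439.5 CPM, and Slc16a3, which exports it, at 145 and 9.28 CPM. The other lactate transporter gene of the list, Slc16a1, was the exception at 26.4 and 18.2 CPM. The levels of Pkm, Pgk1 and Eno1 are less certain, since near-identical copies of these genes could have split their reads, and Aldoa matched more than 1 annotated gene.

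Some targets of hypoxia-inducible factor outside glycolysis were higher, though such targets were not counted as a set of their own. Bnip3 is on the list above and is part of its count and median. Bnip3, which encodes a mitochondrial protein that promotes mitophagy, stood at 568 CPM (553 to 582) and 24.4 CPM (22.3 to 26.7), 23.2-fold higher. Egln3, an oxygen-sensing hydroxylase gene, was at 122 and 16.5 CPM, and Pdk1, a pyruvate dehydrogenase kinase gene, at 186 and 91.3 CPM. Hif1a itself was at 353 and 244 CPM, under 2-fold. Among the 15 genes with the highest differences, P4ha2, a collagen hydroxylase subunit gene, was at 90.9 and 3.54 CPM, Ero1l, an oxidase of the endoplasmic reticulum, at 782 and 40.2 CPM, and Ndrg1, a stress-induced gene, at 254 and 16.4 CPM. For Bnip3, 22.2% of exonic bases are also exonic in Gm45507, an opposite-strand gene.

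The start of Bnip3 is shown for the core letters of the hypoxia response element, ACGTG, here inside the palindrome CACGTG 108 bases before the start (RefSeq, GRCm38.p6, chr7:138909487-138909686, minus strand, motif in capitals).
Bnip3: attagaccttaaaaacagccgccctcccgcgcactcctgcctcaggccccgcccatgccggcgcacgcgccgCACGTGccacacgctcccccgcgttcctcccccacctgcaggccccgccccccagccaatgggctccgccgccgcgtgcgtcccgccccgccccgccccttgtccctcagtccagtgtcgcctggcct
These 5 letters on either strand were present in 15 of 21 windows of the glycolysis and hypoxia list. They were also present in 19.6% of all 32851 windows and in 31.8% of the windows of compared genes, so the motif is common. The list was chosen in part as genes of the response to low oxygen, so its share says nothing about dose.

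In single cells the glycolysis difference separated the doses almost fully. Per 2000 UMIs, cells at 50 IU/mL held a median of 42 UMIs of the list (10th to 90th percentile 29 to 56), and cells at 5 IU/mL a median of 10 (5 to 17). Of 2857 cells at 50 IU/mL, 99.9% lay above the median of the lower dose, and of 4628 cells at 5 IU/mL none lay above the median of the higher dose. The histograms overlapped in 4.88% of their area. The STAT5 list, with medians of 3 and 1, overlapped in 58.5%, and the cytotoxic list, with medians of 7 and 4, in 63.5%. These lists hold fewer UMIs per cell than the glycolysis list.

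**Figure D2:**
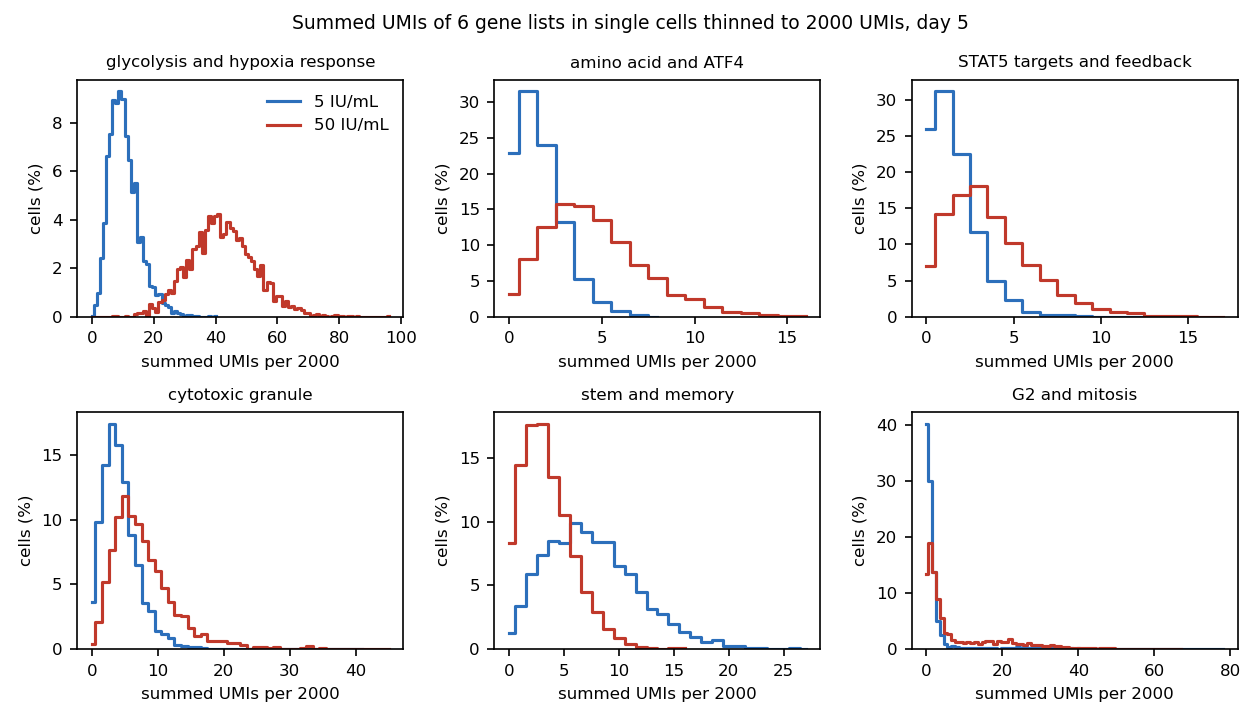
Share of cells (y axis, %) by the summed UMIs of a gene list per 2000 UMIs of the cell (x axis), in 2857 cells at 50 IU/mL (red) and 4628 cells at 5 IU/mL (blue), for 6 lists. The glycolysis histograms overlap in 4.88% of their area, and the stem and memory histograms, where the 5 IU/mL cells lie higher, in 52.7%.

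Amino acid genes were higher as a group: 15 of 19 genes of amino acid uptake, serine and one-carbon metabolism and the ATF4 stress response (78.9%, beside 14.1% of all), with a median of 1.88 and none lower. Atf4, which encodes the transcription factor of that response, stood at 325 and 81.9 CPM. Asns (asparagine synthetase) was at 84.6 CPM (79.2 to 90.3) and 5.49 CPM (4.51 to 6.61), Psat1 (serine synthesis) at 93.2 and 15.4 CPM and Mthfd2 (one-carbon metabolism) at 108 and 31.2 CPM. The 2 subunits of the leucine transporter, Slc7a5 and Slc3a2, had log2 differences of 3.18 and 1.72. The stress genes Trib3 (82.1 and 16.8 CPM) and Ddit3 (178 and 27.2 CPM), which are also ATF4 targets, lay on the same side. Nupr1 was at 29.6 CPM, with only 3 UMIs at 5 IU/mL, a ratio of 198 (counting interval 67.2 to 966). Slc1a5, the glutamine transporter gene, differed little (60.1 and 52.8 CPM), and Psph, the last step of serine synthesis, had a log2 difference of −0.83.

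The start of Asns is shown because its window holds TGATGNAA, the letters of the ATF4 response element, 23 bases before the start (RefSeq, GRCm38.p6, chr6:7693190-7693389, minus strand, motif in capitals).
Asns: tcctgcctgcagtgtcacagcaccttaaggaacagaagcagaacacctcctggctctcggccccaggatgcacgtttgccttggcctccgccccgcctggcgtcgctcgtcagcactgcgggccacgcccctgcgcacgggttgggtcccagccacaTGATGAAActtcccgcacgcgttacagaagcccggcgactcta
On either strand, 7 of 24 windows of the amino acid and ATF4 list held these letters, beside 3.97% of all 32851 windows and 2.67% of those of compared genes. The list was chosen in part as genes of the ATF4 response, so its share says nothing about dose.

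Lipid synthesis genes were higher too. Of 27 genes of sterol and fatty acid synthesis, 19 were higher (70.4%, beside 14.1% of all) and none lower, with a median of 1.34. The desaturase gene Scd1 stood at 91.1 CPM (85.5 to 97.1) and 4.64 CPM (3.74 to 5.68), and Scd2 at 602 and 121 CPM. Hmgcs1, an early enzyme of cholesterol synthesis, was at 159 and 46.0 CPM, and Fdps and Cyp51, later ones, had log2 differences of 2.10 and 1.33. Of the exonic bases of Fdps, 26.7% also belong to Gm43738 on its own strand. Fasn, the fatty acid synthase gene, did not move with the sterol genes (27.0 and 30.5 CPM). Of 16 genes of fatty acid oxidation, only Acadl passed 2-fold, at 147 and 72.2 CPM (6.25% of the list, beside 14.1% of all), and Cpt1a, the carnitine step that admits fatty acids to the mitochondrion, was at 24.0 and 22.1 CPM.

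Cells at 50 IU/mL held transcripts of the inducible heat shock gene pair that were at or near 0 at 5 IU/mL. Hspa1a, which encodes an HSP70 chaperone, stood at 128 CPM (122 to 135) from 1360 UMIs, and no UMI was counted at 5 IU/mL or without cytokine. Against a floor of 3 UMIs over the 5 IU/mL library it was 858-fold higher, and the lower limit of the counting interval of the ratio was 697. Hspa1b was at 105 CPM (98.6 to 111) and 0.249 CPM (0.0810 to 0.582), from 1109 and 5 UMIs. The copies are near identical over most of their transcripts, so the split between these 2 genes is uncertain. Of thinned cells at 50 IU/mL, 11.8% (337 of 2857) had a UMI of either gene. The signal was uneven, since the top 29 cells, 1% of cells, held 31.0% of its 1391 UMIs. Other chaperones showed smaller steps: Hsp90ab1 was at 3163 and 1135 CPM, Dnajb1 at 70.1 and 27.3 CPM, and the constitutive Hspa8 at 1796 and 1280.0 CPM. In all 5 of 12 heat shock genes were higher (41.7%, beside 14.1% of all) and none lower.

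The start of Hspa1a is shown for GAANNTTC, the inverted repeat of the heat shock element, which lies 104 bases before the start (RefSeq, GRCm38.p6, chr17:34972137-34972336, minus strand, motif in capitals).
Hspa1a: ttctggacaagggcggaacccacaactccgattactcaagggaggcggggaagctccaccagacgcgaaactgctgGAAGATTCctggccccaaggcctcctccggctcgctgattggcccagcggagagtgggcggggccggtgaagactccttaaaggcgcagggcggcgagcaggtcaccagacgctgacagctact
The RefSeq windows of Hspa1a and Hspa1b differed at 4 of 300 bases. These letters on either strand were in 9 of 11 windows of the heat shock list, beside 7.86% of all 32851 windows. The list was chosen as heat shock genes, so the share says nothing about dose.

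Metallothioneins, which bind zinc and copper, were higher. Mt1 stood at 761 CPM (744 to 778) and 104 CPM (99.3 to 108), and Mt2 at 288 CPM (278 to 298) and 30.1 CPM (27.8 to 32.6). Mt1 had a UMI in 55.0% of thinned cells at 50 IU/mL, 12.6% at 5 IU/mL and 0.0447% of naive cells. Of 11 genes of endoplasmic reticulum chaperones and their control, 4 were higher (36.4%, beside 14.1% of all) and none lower, among them Xbp1, a transcription factor of the unfolded protein response (105 and 36.4 CPM), and Canx (257 and 91.9 CPM). Hspa5, the reticulum's main HSP70, was at 219 and 130.0 CPM and Calr had a log2 difference of −0.03. Of the exonic bases of Mt2, 73.5% are also exonic in Gm45774, which runs the other way.

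Genes of cell division were higher at 50 IU/mL. Cells with a UMI of Mki67 or Top2a, genes of dividing cells, made up 46.8% (45.0% to 48.7%, 2857 cells) at 50 IU/mL and 12.6% (11.7% to 13.6%, 4628 cells) at 5 IU/mL after thinning to 2000 UMIs. Without thinning the shares were 50.4% and 18.7%. Without cytokine the share was 8.26%, and in naive cells 2.08%. Of 41 G2 and mitosis genes 35 were higher (85.4%, beside 14.1% of all) and none lower (median 1.36), with Mki67 at 430.2 and 112 CPM and Top2a at 765 and 212 CPM. Of 27 DNA replication genes 20 were higher (74.1%) and none lower (median 1.36). In summed counts, more cycling cells and more of these RNAs per cycling cell cannot be told apart, so cycling and other cells were also compared separately. Between cells with a UMI of Mki67 or Top2a (1638 and 879, called cycling here) the G2 and mitosis median was 0.26, with 3 of 44 genes higher, and the DNA replication median 0.63, with 9 of 36. Of all genes compared between these cells 10.98% were higher, so the 6.82% of the G2 and mitosis list lay below that share. Between cells without (1613 and 3824) only 7 of 44 G2 and mitosis genes reached 20 CPM in either library, so no median is set beside these. The summed level of all 44 was 7707 and 6272 CPM between cycling cells (50 and 5 IU/mL) and 804 and 446 CPM between the others. For the 42 DNA replication genes it was 2719 and 1674 CPM, and 772 and 449 CPM. The cells were divided by UMIs of Mki67 and Top2a before thinning, and both genes are on the G2 and mitosis list. The division thus sets part of that list's level in each kind of cell. Depth in these cells also differed between the libraries.

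Some other lists differed alike within both kinds of cells, and some did not. The glycolysis median was 2.27 between cycling cells and 2.35 between the others, and the stem and memory median −1.48 and −1.69. The amino acid and ATF4 median was 1.88 and 1.58, and that of the STAT5 list 1.25 and 1.64. The cytotoxic granule median was 0.47 between cycling cells, with 4 of 11 genes higher, and 1.61 between the others, with 7 of 12. Sterol and fatty acid synthesis had 0.75, with 9 of 27 higher, and 1.46, with 15 of 23. The serpin, galectin, annexin and S100 list had 0.02 and 0.58. The 7 chemokine receptors compared had medians of −0.025 and 0.40. Of 66 clustered histone genes, 28 were compared between cycling cells (median −0.24) and 8 between the others (median 0.30), so these medians are over different genes. Over all genes, 650 of 5921 were higher between cycling cells (10.98%) and 204 lower (3.45%), and between the others 652 of 5529 (11.8%) and 200 (3.62%).

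Of 8 cyclin, CDK and CDK inhibitor genes compared, 2 were higher (25.0%, beside 14.1% of all compared genes) and none lower, with a median of 0.37. Cdkn1a, which encodes the CDK inhibitor p21, stood at 181 CPM (173 to 189.7) and 6.54 CPM (5.46 to 7.76), 27.8-fold higher, and Cdk6, a kinase that starts the cycle, at 171 and 30.9 CPM. Cdkn1a was seen in 31.5% of the cells with a UMI of Mki67 at 50 IU/mL (907 cells) and in 21.9% of those without, so it was not limited to cells outside the cycle by this measure. Ccnd2 was at 321 and 586 CPM and Cdkn1b at 203 and 179 CPM. Among p53 targets Ccng1 (89.8 and 37.8 CPM) was higher, but Mdm2 (0.74), Sesn1 (−0.36) and Fas (−0.23) differed by under 2-fold on the log2 scale. Of 8 genes compared from the BCL2 family list, 2 were higher (25.0%, beside 14.1% of all) and none lower, with a median of 0.45. The higher ones were the death genes Bcl2l11, which encodes BIM (229 and 79.2 CPM), and Pmaip1 (20.6 and 5.44 CPM). Mcl1, a survival gene, was at 148 and 222 CPM.

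The stem and memory genes were lower at 50 IU/mL: 10 of 16 were lower (62.5%, beside 3.4% of all compared genes), 1 was higher, and the median was −1.72. Tcf7 stood at 69.5 CPM (64.6 to 74.7) and 295 CPM (287 to 302), 4.24-fold lower, beside 348 CPM without cytokine and 471 CPM in naive cells. The egress receptor gene S1pr1 was at 79.1 CPM (73.9 to 84.7) and 352 CPM (344 to 360.0), and Klf2, the factor that drives it, at 99.0 and 405 CPM. Il7r, the IL-7 receptor chain that keeps naive and memory cells alive, was at 159 and 559.8 CPM, and Id3 at 15.0 and 122 CPM. Members of the list differed among themselves: Lef1 was at 171 and 318 CPM, while Ccr7 (149 and 139 CPM), Foxo1 (103 and 99.4 CPM), Bach2 (66.7 and 78.4 CPM) and Satb1 (579 and 489 CPM) differed little. Myb, higher at 23.9 and 9.23 CPM, was the 1 gene on the other side.

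Some of the named genes belonged to no list. Basp1, a membrane protein gene, stood at 284 and 12.7 CPM, and Emilin2, an extracellular matrix gene, at 129 and 5.34 CPM. Gpld1, a phospholipase that cleaves membrane anchors, was at 59.9 and 1.70 CPM, and 45.5% of its exonic bases also belong to Mrs2, which runs the other way. Of the stem and memory list, Actn1 (an actin crosslinker) was at 16.9 and 126 CPM and Dapl1 at 18.9 and 80.3 CPM. Snapc5 was 4.23-fold lower. Slco3a1, an organic anion transporter gene, was at 48.7 and 186 CPM. Dapl1, a gene of naive cells, was at 630.3 CPM in the naive library.

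In single cells the stem and memory list had medians of 3 UMIs per 2000 at 50 IU/mL and 7 at 5 IU/mL, and 52.7% of the histograms' area was shared. Tcf7 had a UMI in 11.4% and 41.3% of cells, and S1pr1 in 13.7% and 46.3%. At 5 IU/mL Tcf7 was seen in 25.7% (23.3% to 28.1%) of the 1341 cells with a Gzmb UMI and in 47.7% (46.0% to 49.5%) of the 3287 without. At 50 IU/mL it was seen in 10.7% (9.56% to 12.0%) of 2543 cells with Gzmb and in 16.9% (12.9% to 21.5%) of 314 without. The share of cells with Tcf7 was thus lower at the higher dose on both sides of this division.

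Chemokines and their receptors differed strongly in single genes. Of 7 chemokine receptor genes compared, 2 were higher (28.6%, beside 14.1% of all compared genes) and 1 lower (14.3%, beside 3.4%). Cxcr3, the receptor that leads T cells to inflamed tissue, stood at 9.35 CPM (7.60 to 11.4) and 123 CPM (118 to 128), 13.1-fold lower, and Ccl5, a chemokine of memory and effector cells, at 57.9 CPM (53.4 to 62.6) and 505 CPM (495 to 515), 8.73-fold lower. Without cytokine they were at 181 and 1482 CPM. Cxcr4 (35.2 and 4.34 CPM) and the leukotriene receptor gene Ltb4r1 (112 and 18.1 CPM) were higher. The lymphotoxin gene Ltb was at 470.5 and 1042 CPM, and Lta at 34.5 and 9.73 CPM. Klrd1, which encodes CD94, a receptor for nonclassical MHC, stood at 214 and 795 CPM. At 5 IU/mL it also lay above the cells without cytokine (387 CPM) and the naive cells (269 CPM). Of 11 integrin and adhesion genes compared, 2 were higher (18.2%, beside 14.1% of all compared genes) and 2 lower (18.2%, beside 3.4%). The median of that list was −0.11. Itga4 was at 23.5 and 71.2 CPM and Itgb3 at 104 and 42.9 CPM. Of 4 inhibitory receptor genes compared, 1 was higher (25.0%, beside 14.1% of all compared genes) and 1 lower (25.0%, beside 3.4%). Entpd1, which encodes CD39, was the higher one (31.3 and 11.2 CPM) and Cd160 the lower one (23.9 and 73.9 CPM). Ctla4 was at 465 and 277 CPM and Lag3 at 72.0 and 44.8 CPM.

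Interferon-stimulated genes did not move as 1 group, with 2 of 17 higher (11.8%, beside 14.1% of all compared genes), 4 lower (23.5%, beside 3.4%) and a median of −0.29. Ifitm1 and Ifitm2, antiviral membrane genes, were higher (730.1 and 327 CPM, 641 and 244 CPM), while Slfn1 (44.2 and 159.6 CPM), Zbp1 (23.2 and 72.5 CPM), Ifi27l2a (145 and 409 CPM) and Irf7 (9.35 and 22.2 CPM) were lower. For Ifitm2, 40.9% of exonic bases also belong to Gm45717 on its own strand. Another 3 genes, of the Ifi200 family, whose proteins sense DNA, were among the 15 with the lowest differences: Ifi213 at 6.23 and 76.6 CPM, Ifi208 at 16.1 and 63.2 CPM and Ifi203 at 68.8 and 255 CPM. All 8 GIMAP genes, GTPases that support lymphocyte survival, had negative differences, from −0.98 to −0.53, yet none reached 2-fold. The MHC class I list had 1 of 13 genes lower (7.69%, beside 3.4% of all), Psmb10 (77.7 and 191 CPM), with H2-K1 at 1604 and 2302 CPM. Of 17 T cell receptor signalling genes, 1 was lower (5.88%): Cd8b1 stood at 298 and 758 CPM, and Cd8a, its partner chain, at 159.9 and 275 CPM. Of 12 quiescence genes compared, 3 were lower (25.0%, beside 3.4% of all compared genes) and 2 higher (16.7%, beside 14.1%), with a median of −0.79. The lower ones were Btg1 (702 and 1587 CPM), Slfn2 (149 and 418 CPM) and Txnip (232 and 517 CPM), and the higher ones Klf6 (192 and 77.1 CPM) and Kdm6b (48.1 and 20.9 CPM).

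Some large gene groups had few or no genes past 2-fold. Of 77 nuclear genes of oxidative phosphorylation, 1 was higher and 1 lower (1.30% each, beside 14.1% and 3.4% of all), and the median was 0.06, which turned to −0.13 under TMM scaling. The summed level of this list was 18818 CPM at 50 IU/mL and 18623 at 5 IU/mL. None of 84 cytosolic ribosomal protein genes passed 2-fold in either direction (median −0.19). Of 24 ribosome biogenesis genes none was higher (beside 14.1% of all) and 2 were lower (8.33%, beside 3.4%), with a median of −0.42. The lower ones were Nop10 (61.3 and 149 CPM) and Nolc1 (17.6 and 40.3 CPM). The summed level of all 34 genes of this list went the other way, at 4775 and 3582 CPM. Npm1, a nucleolar chaperone gene, was at 2638 and 1367 CPM. These medians lie below the 0.22 of all compared genes.

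**Figure D3:**
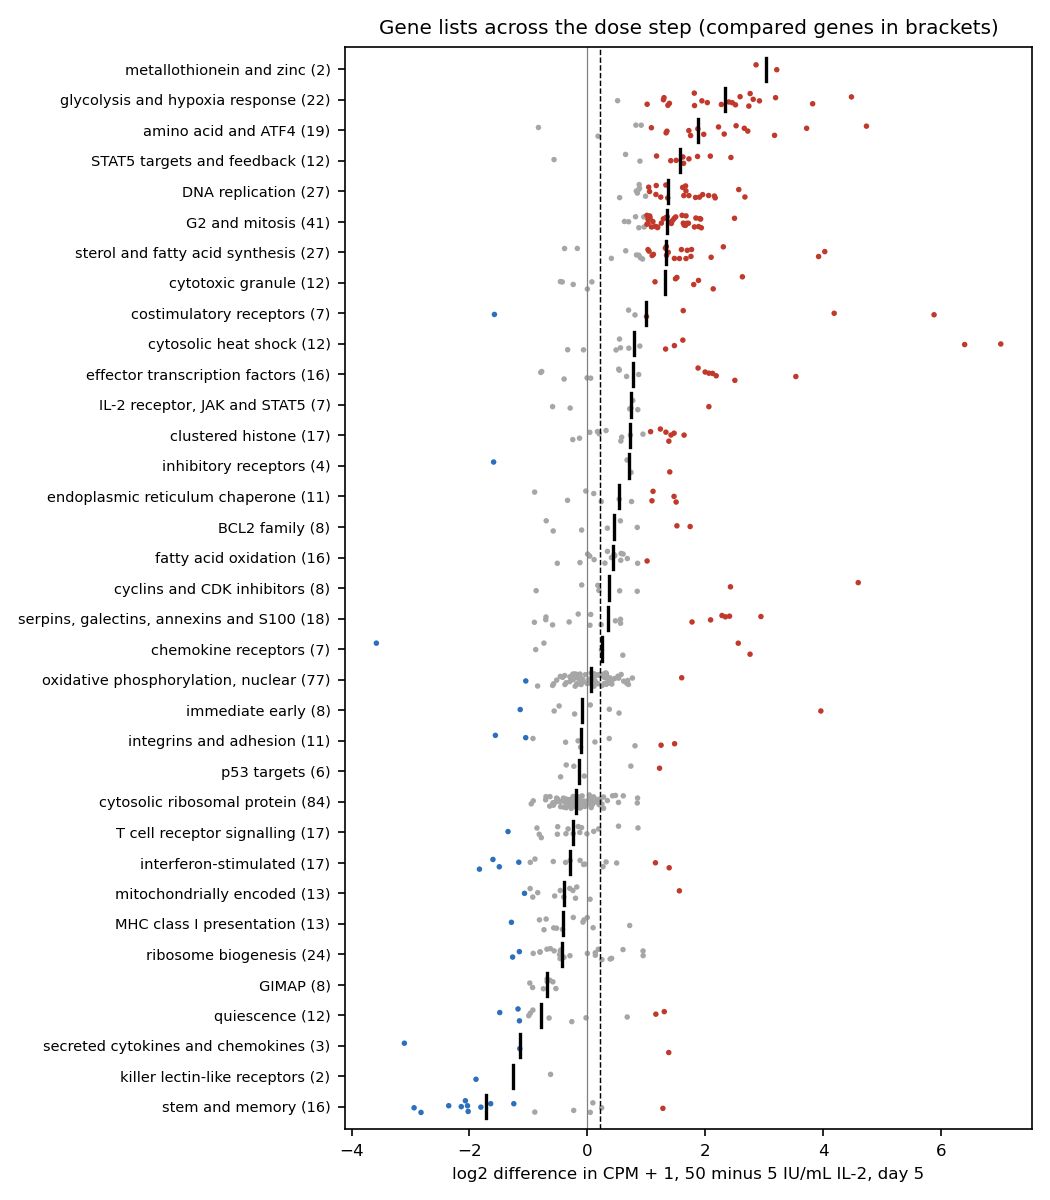
Log2 difference in CPM + 1 between 50 and 5 IU/mL IL-2 on day 5 (x axis) for each compared gene of 35 lists (y axis, number of genes in brackets), 1 point per gene, red at 1 or above and blue at −1 or below. Black bars are list medians, from −1.72 for stem and memory to 3.04 for the 2 metallothioneins, and the dashed line is the median of all compared genes, 0.22.

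The levels were also set beside the cells kept without cytokine for the same 5 days. For several genes the step from none to 5 IU/mL was small and that from 5 to 50 IU/mL large. Tnfrsf9 was at 10.3, 8.88 and 582 CPM in that order, Asns at 6.54, 5.49 and 84.6 CPM, and Cish at 10.7, 17.2 and 97.3 CPM. Gzmb, at 47.2, 272 and 1689 CPM, and Mt1, at 25.8, 104 and 761 CPM, differed at both steps. Ccl5 was lower at each step, at 1482, 505 and 57.9 CPM, while S1pr1 was at 265, 352 and 79.1 CPM, with its low value at the higher dose alone. Over the 5495 genes used above, the root mean square log2 difference of the 5 IU/mL library from the library without cytokine was 0.406, and that of the 50 IU/mL library was 0.995. The doses themselves lay 0.771 apart. The library nearest to 5 IU/mL was that of IL-15 at 5 IU/mL on day 5 (0.346), and the nearest to 50 IU/mL was that of IL-2v at 5 IU/mL on day 5 (0.536), followed by IL-2 at 5 IU/mL on day 3 (0.540) and IL-2v at 50 IU/mL on day 5 (0.541).

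**Figure D4:**
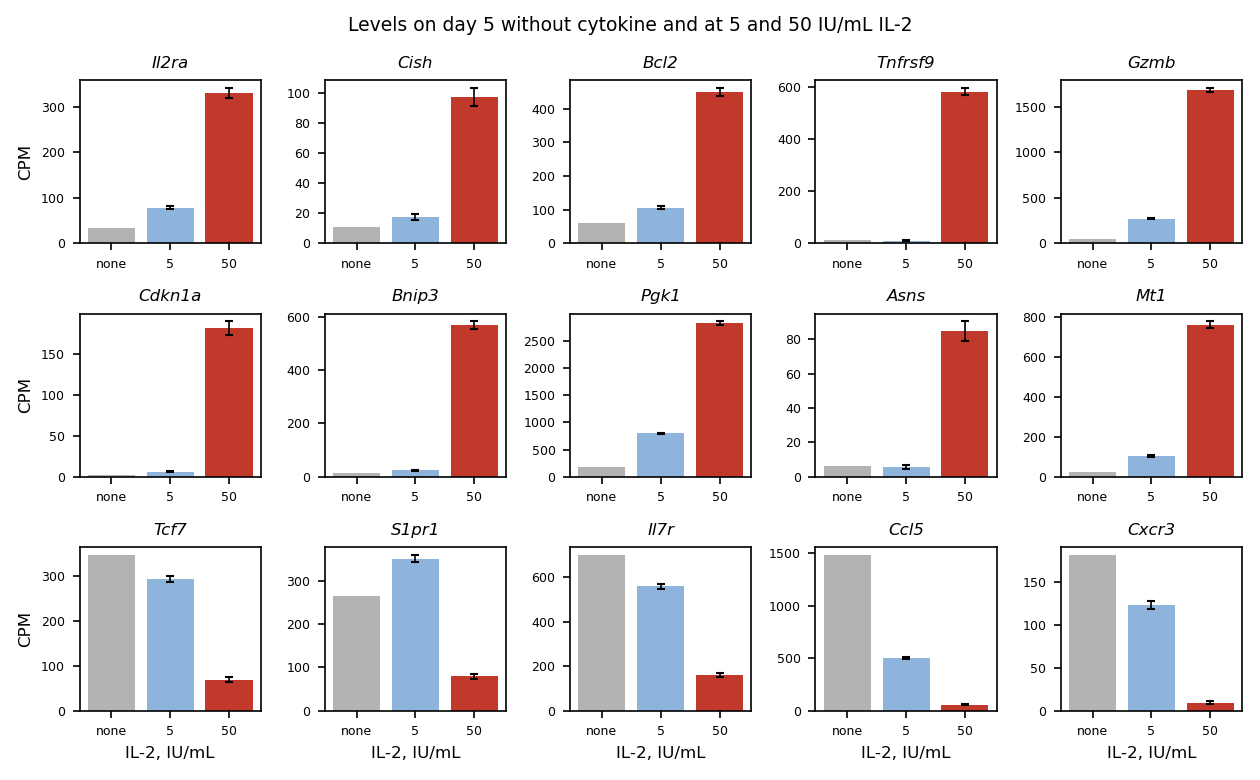
CPM (y axis, own scale for each gene, from 0) of 15 genes on day 5 without cytokine (grey), at 5 IU/mL (blue) and at 50 IU/mL IL-2 (red), 1 library each. Error bars at the 2 doses are exact Poisson 95% intervals, which cover counting error only, and the grey bars carry none. Il7r, Tcf7, S1pr1, Ccl5 and Cxcr3 are lowest at 50 IU/mL and the other 10 genes highest there.

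The same dose step of IL-2 on other days, and of the other cytokines on day 5, comes from libraries that are not shared with this comparison. By the same rule 5.46% of compared genes differed for IL-2 on day 3, 21.1% on day 10, 5.34% for IL-2v on day 5 and 2.37% for IL-15 on day 5, so the IL-2 step of day 5 (17.5%) lay between those of days 3 and 10. For IL-2 on day 3, 3.48% of compared genes were higher and 1.98% lower, and on day 10 6.57% and 14.5%. On day 5, IL-2v had 4.21% higher and 1.13% lower, and IL-15 2.13% and 0.239%. Of the genes higher on day 5, 609 of 745 compared on day 3 (81.7%) also had a positive difference there, beside 57.8% of all genes compared on both days. On day 10 it was 417 of 618 (67.5%), beside 32.1% of all. Of the genes lower on day 5, 119 of 141 had a negative difference on day 3 (84.4%, beside 42.2% of all) and 163 of 171 on day 10 (95.3%, beside 67.9% of all). All 4 other steps had the sign of day 5 for 386 of the 814 higher genes (47.4%, beside 18.1% of all compared genes). For the lower genes it was 126 of the 196 (64.3%, beside 13.04% of all). These counts, unlike those above, had no level filter in the other steps. Genes too low to be compared in those steps are thus included. Genes at least 2-fold different in the same direction on all 3 days with IL-2 numbered 72 higher and 77 lower, 8.85% and 39.3% of those of day 5. Of all genes compared on day 5, 1.41% and 1.89% passed 2-fold in these directions on both other days, again without a level filter there.

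Single genes varied between days. Tnfrsf9 had log2 differences of 1.56 on day 3, 5.88 on day 5 and 4.65 on day 10, and Tcf7 of −1.87, −2.07 and −5.71. Bnip3 had its largest IL-2 step on day 5, with 1.27, 4.48 and 1.17. Its level at 5 IU/mL had gone from 142 CPM on day 3 to 24.4 on day 5 and 92.2 on day 10, and at 50 IU/mL from 343 to 568 and 208 CPM. The glycolysis list had medians of 0.52 on day 3, 2.34 on day 5 and 0.78 on day 10. Pgk1 at 5 IU/mL was at 2500.1, 800.4 and 1346 CPM on these days and at 50 IU/mL at 2733, 2819.9 and 1908 CPM. The level at 5 IU/mL varied more over the days than that at 50 IU/mL. Hspa1a was at 65.8 CPM on day 3 and 0.183 CPM on day 10 at 50 IU/mL. In the IL-2v and IL-15 steps of day 5, the glycolysis medians were 0.36 and 1.04, and Mt1 had log2 differences of −0.13 and −0.25.

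**Figure D5:**
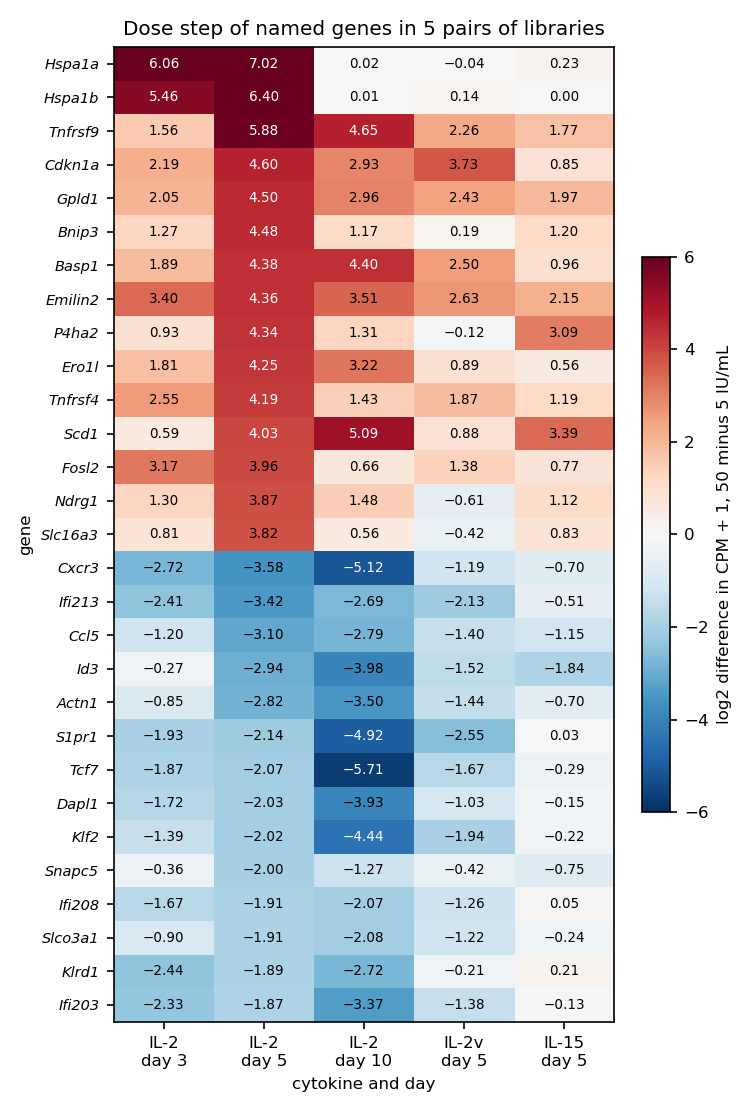
Log2 difference in CPM + 1 between 50 and 5 IU/mL (colour and printed value) for named genes (rows) in the IL-2 steps of days 3, 5 and 10 and the IL-2v and IL-15 steps of day 5 (columns), 1 pair of libraries per column. The genes were chosen on the IL-2 day 5 column, so its values are extreme by choice. All genes shown have the sign of day 5 on days 3 and 10 with IL-2, and Hspa1a exceeds 6 on days 3 and 5 but is 0.02 on day 10. On day 10 Hspa1a (0.183 and 0.168 CPM at 50 and 5 IU/mL) and Hspa1b (0.110 and 0.101 CPM) are near 0 at both doses. Their sign on that day carries no weight.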

How the data were processed

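The authors deposited 1 table of raw UMI counts (genes by cell barcodes) per library, in which the values are whole numbers per the file contents. Cell Ranger, Seurat 3.0.2 and 4.0.1 and the mouse build mm10 are named per the submitters' processing notes, with no order or settings. The labels' extraction protocol describes a tumour sort and the growth protocol describes culture, and the cells were taken as cultured. Groups came from titles and the design text.

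UMIs were summed over all cells of a library and scaled to CPM in Python 3.11.15 (numpy 2.4.6, pandas 2.3.3, scipy 1.17.1). Genes with 20 CPM in either library were compared as log2(CPM + 1), and a difference of 1 counted. No test was made, because each condition had 1 library. No doublet caller was run, and doublet removal before deposit is not given in the sources used here. TMM factors came from edgeR 4.0.16. Cells were thinned to 2000 UMIs for shares, which left out 394 cells at 50 IU/mL and 75 at 5 IU/mL. The median number of genes per cell was 1271 and 1376, and 961 and 853 after thinning. The counting script, tested on simulated Poisson counts with genes changed 4-fold or 8-fold, returned all changed genes. That simulation held no changes near 2-fold and no variation between libraries beyond counting error.

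The 35 gene lists, and the comparison itself, were chosen with earlier results of these data known. Named genes were the 15 highest and 15 lowest differences among genes with 50 CPM or more in the higher library, without Gm, Rik, ribosomal protein, mitochondrial and T cell receptor variable genes, and members of the lists. Genes, exon overlaps and near-identical copies (97% identity over 50% of the longest transcript) came from GENCODE vM21 on GRCm38, the same assembly as mm10, and promoter windows from RefSeq on GRCm38.p6. Results of some genes are not reported here, though counts over lists include them.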

Additional observations from a re-analysis of the deposited data

Results flagged for a closer look

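With IL-2, 4 gene lists had medians of opposite sign on days 5 and 10 across the same dose step, each at least 0.5 in size on both days. The G2 and mitosis list stood at 1.36 on day 5 and −1.74 on day 10, and the DNA replication list at 1.36 and −1.19. Of the G2 and mitosis genes, 35 of 41 compared were higher and none lower on day 5, and none of 29 was higher and 28 were lower on day 10. Of the DNA replication genes it was 20 of 27 higher and none lower, and none of 18 higher and 12 lower. The clustered histone list had medians of 0.73 over 17 genes and −0.59 over 7, of 66 listed. Over the 7 compared on both days they were 0.32 and −0.59. Over the genes compared on both days the G2 and mitosis medians were 1.33 and −1.74 (29 genes) and the DNA replication medians 1.05 and −1.22 (16 genes). The STAT5 targets and feedback list stood at 1.57 over 12 genes and −0.67 over 15, of which 3 were higher and 6 lower. Over the 12 compared on both days the medians were 1.57 and −0.55. Of all compared genes 6.57% were higher and 14.5% lower on day 10. Cish, in that list, was at 377 CPM at 5 IU/mL and 163 CPM at 50 IU/mL on day 10, the reverse of its order on day 5. The median of all compared genes was 0.22 on day 5 and −0.30 on day 10. The difference between the days was not tested, since each day had 1 library per dose.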

How the results depend on the processing

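Without an expression filter 1548 genes were higher and 506 lower, and a pseudocount of 10 CPM gave 492 and 127. The lower genes numbered 344 under TMM scaling and 410 with totals that left out ribosomal protein and mitochondrial genes. All 196 lower genes were among those of each of these but the pseudocount. The other settings (single-cell means, cells with at most 5% mitochondrial UMIs, cells with at most 2 times the median UMIs, cells with and without a Mki67 or Top2a UMI, cells without a Hspa1a or Hspa1b UMI, thinning) stayed within 1.5 times of both counts. The share of cycling cells at 50 and 5 IU/mL was 36.8% and 8.97% at 1000 UMIs, 50.4% and 18.7% without thinning, and 53.9% and 15.8% with at least 3 UMIs of the G2 and mitosis list. Of 385 list medians under alternatives, 8 changed sign. Without the filter, medians became 0.57 for secreted cytokines and chemokines, 0.25 for killer lectin-like receptors, 0.46 for p53 targets and 0.39 for immediate early genes, with more genes in each. Oxidative phosphorylation became −0.13 under TMM scaling and −0.087 with the reduced totals. Between cycling cells, chemokine receptors became −0.025 and clustered histones −0.24. The cause was not tested. Of 330 values of the 30 named genes under alternatives, 87 lay outside the counting error of the main value. The log2 difference of Gpld1 ranged from 2.58 to 4.88 and that of P4ha2 from 2.90 to 4.61. None of the 330 changed sign, and only Hspa1a and Hspa1b dropped under 2-fold, in cells chosen to lack them. No paired analysis was possible because each condition had 1 library. Depth limits low genes most: 3 UMIs, the floor used, are a smaller level in the 5 IU/mL library, which had more UMIs.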
